A study of Mus musculus with 20 samples.

Results

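Kidneys of male mice of the inbred strain DBA/2J were compared, 6 weeks after the last dose of JQ1, with kidneys of vehicle-dosed males. The comparison used 7 of the 20 libraries of the series, chosen by their labelled organ and group, and asked how close each gene lay to its vehicle level once the drug had been withdrawn. The 3 JQ1 recovery libraries came from mice that had been given intraperitoneal JQ1 each day over 3 weeks, at 50 mg/kg, and were sampled when 16 weeks old. The 4 vehicle libraries came from mice injected on the same schedule without drug, 3 of them sampled when dosing ended, at 10 weeks of age (vehicle treatment) and 1 sampled with the recovery mice at 16 weeks (vehicle recovery). A further 3 libraries from the end of JQ1 dosing, at 10 weeks, entered the same fit and define the genes that changed under the drug. The study pooled the 4 vehicle libraries as 1 control, and that pool is the baseline here. Strain, sex and weeks of injection were shared by every group, whereas age was matched to the recovery mice in 1 of the 4 vehicle libraries only. One supplementary legend of the study swaps the sizes of the vehicle groups and shortens the recovery, and the design text mentions untreated animals among the controls. The sample titles were followed here, and every result on the vehicle recovery library rests on them.

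JQ1 is a small molecule that occupies the acetyl-lysine pockets of the BET family of bromodomain proteins, so that they leave acetylated chromatin and transcription of genes that depend on them falls while the drug is present. The kidney cortex is dominated by proximal tubule cells, which reabsorb filtered solutes, make glucose and clear drugs, and in male mice many of their genes respond to androgens. Renal transcription also follows the day-night clock and shifts as animals mature.

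The libraries held 13952510 to 21446467 estimated reads, and 21.98% to 26.03% of these came from the mitochondrial genome. Each value below is a CPM (reads of a gene relative to the scaled total of its library) and each fold change a log2 value from edgeR with its standard error (SE) or its 95% interval. Tubule and collecting duct markers were present in all 7 libraries: the phosphate transporter Slc34a1 ran from 2225 to 2726 CPM, uromodulin (Umod) from 526 to 679.7 CPM and aquaporin 2 (Aqp2) from 66.5 to 192 CPM. The labels do not say whether libraries of a group came from separate animals, so the p-values measure the spread between these libraries, and counting error alone gives only a lower limit to it. In bulk tissue, fewer cells of a type and less RNA per cell cannot be told apart.

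The vehicle recovery library lay with the JQ1 recovery libraries rather than with the other vehicle libraries. On the first principal component of the 7 libraries, which took 25.5% of the variance, the recovery libraries scored -26.8, -18.3 and -13.4, the vehicle recovery library -19.8 and the vehicle treatment libraries 20.9, 36.0 and 21.5. The pool of 4 vehicle libraries thus held libraries from both ends of this axis. Age, time since injection and the identity of that single library cannot be told apart, so for the genes described in full its value is given apart from the other vehicle libraries. Where only a pooled difference is printed, that library is part of the pool.

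Against the pooled vehicle libraries, 13160 of 17146 genes tested (76.8%) had a 95% interval that stayed inside a 2-fold difference in either direction, and 9752 (56.9%) stayed inside 1.5-fold. Such genes are called bounded here. The median difference over all genes was -0.01 on the log2 scale, and 48.6% of genes lay above 0. Only 1 gene (0.00583%) passed an adjusted p of 0.05, while 1572 (9.17%) had an unadjusted p below 0.05, 823 of them higher at recovery. Without the vehicle recovery library 241 genes were called, 192 higher and 49 lower. Of those 1572 genes, 1165 were bounded within 2-fold, so most differences that excluded 0 were small. The 3 recovery libraries did not overlap the 4 vehicle libraries in 1796 genes (10.5%).

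How tightly a gene was bounded followed its abundance. Of 531 genes with a mean under 0.5 CPM, 2 (0.377%) were bounded within 2-fold, and of 3461 genes between 0.5 and 2 CPM 714 (20.6%) were. The share was 87.8% of 4737 genes between 2 and 10 CPM, 98.4% of 6957 genes between 10 and 100 CPM and 98.8% of 1460 genes at 100 CPM or more. The median distance from the estimate to either end of the interval was 0.96 on the log2 scale between 0.5 and 2 CPM and 0.15 at 100 CPM or more. For 3579 genes the interval both held 0 and reached past 2-fold, so neither a return to the vehicle level nor a lasting difference was detectable in these libraries. Of these genes, 506 had a mean of 2 CPM or more.

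**Figure D1:**
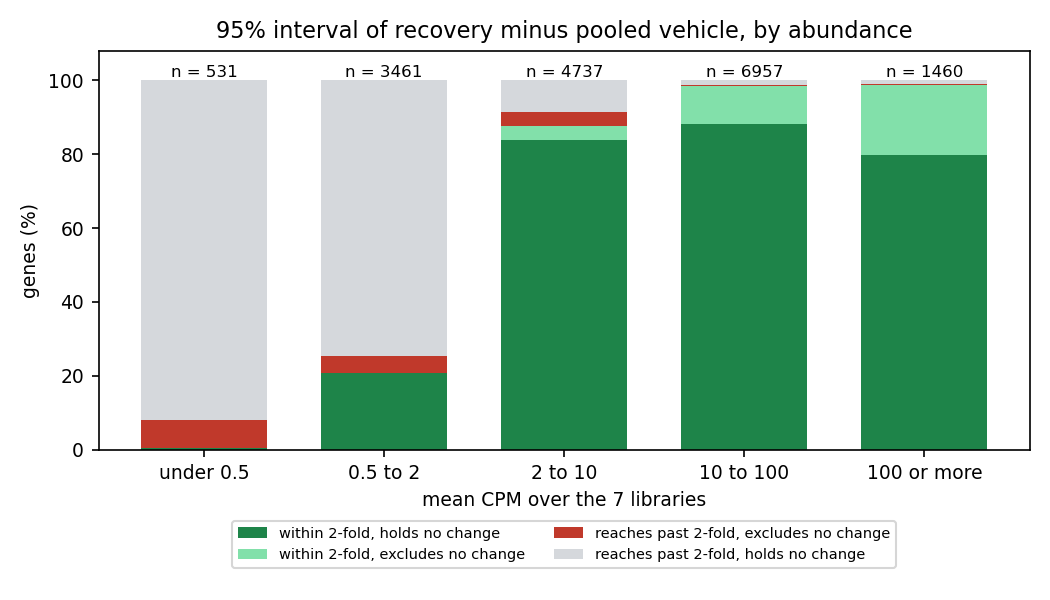
Share of genes (%) in each class of 95% interval for JQ1 recovery minus pooled vehicle, by mean CPM over the 7 libraries, with the number of genes above each bar. Green marks intervals inside 2-fold, dark where they hold no change and light where they exclude it, red marks intervals that exclude no change and reach past 2-fold, and grey marks intervals that hold no change and reach past 2-fold. The bounded share goes from 0.377% under 0.5 CPM to 98.8% at 100 CPM or more.

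Several of the most abundant nuclear genes stayed near baseline, and Kap, also among the most abundant, is described further below. The beta subunit Atp1b1 of the sodium-potassium pump, which drives tubular reabsorption, differed by -0.02 (-0.15 to 0.11), and the secreted glutathione peroxidase Gpx3 by 0.04 (-0.19 to 0.27). Acsm2, a medium-chain acyl-CoA synthetase of the proximal tubule, read 5934, 5275 and 5492 CPM at recovery, 5121 CPM in the vehicle recovery library and 4564, 4499 and 4509.8 CPM in the vehicle treatment libraries. Its recovery libraries all lay above its vehicle libraries, yet the difference of 0.25 (0.09 to 0.42) was well inside 2-fold (adjusted p = 0.321). Timp3, an inhibitor of matrix metalloproteinases, likewise differed by 0.23 (0.07 to 0.38). The nuclear RNA Malat1 differed by 0.05 (-0.13 to 0.23).

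The single gene that passed the test was Slc16a6 (ENSMUSG00000041920), a monocarboxylate transporter known from zebrafish to export ketone bodies from hepatocytes. It read 76.2, 80.2 and 79.9 CPM at recovery, 57.0 CPM in the vehicle recovery library and 47.1, 39.8 and 53.5 CPM in the vehicle treatment libraries. All 3 recovery libraries were above all 4 vehicle libraries, and the vehicle recovery library was the highest of its group. The difference was 0.67 (SE 0.10, interval 0.47 to 0.87, adjusted p = 0.0277), so it was both distinct from baseline and bounded within 2-fold. At the end of dosing it had read 70.3, 74.6 and 72.6 CPM, close to its recovery levels. Against the vehicle recovery library alone its difference was 0.47 (0.18 to 0.75), which did not pass (adjusted p = 1). The call held under 8 of 15 alternatives, with differences of 0.58 to 0.76 and adjusted p values from 4.46e-10 to 0.22. It was lost when recovery replicate 1, 2 or 3 (adjusted p = 0.0907, 0.076 and 0.126) or vehicle treatment replicate 1 (0.22) was left out. With every library kept, the call was also lost with length-scaled TPM counts (0.164), voom (0.122) and the replicate number as a block (0.0729).

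Other monocarboxylate transporters differed in both directions. Of 11 tested members of the Slc16a family besides Slc16a6, 9 were bounded within 2-fold, 5 had an unadjusted p below 0.05 against 9.17% of all genes, and the median difference was 0.15 against -0.01 over all genes. Slc16a14, an orphan member of the family, read 17.1, 17.6 and 18.6 CPM at recovery, 10.6 CPM in the vehicle recovery library and 11.9, 10.6 and 10.1 CPM in the vehicle treatment libraries. Its vehicle recovery library sat among the vehicle treatment libraries, unlike that of most genes that set recovery apart. The difference of 0.72 (0.37 to 1.07) did not pass the test (adjusted p = 0.213), and at the end of dosing it had read 10.1, 5.08 and 6.06 CPM. Slc16a7, which carries pyruvate and lactate with high affinity, differed by -0.41 (-0.62 to -0.19), and its family member Slc16a13 by 0.43 (0.17 to 0.69). The first fell and the second rose against the vehicle treatment libraries, by -0.47 (adjusted p = 0.0272) and 0.54 (adjusted p = 0.0344), but these calls held in 0 and 1 of 6 fits that each left out 1 recovery or vehicle treatment library.

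Few genes had an interval wholly beyond the bound. It lay entirely past 2-fold in 10 genes and past 1.5-fold in 26, of which 3 and 7 reached 2 CPM in the higher group. The 3 were Igha, Ct55 and Gapdh-ps16, and each had an adjusted p above 0.05 (Ct55 and Gapdh-ps16 passed without the vehicle recovery library, at 0.0167 and 0.00468). Gapdh-ps16 also passed without vehicle treatment replicate 3, at 0.0298. Igha, the constant region of immunoglobulin A heavy chains and a marker of plasma cells, read 9.12, 7.31 and 2.46 CPM at recovery, 1.68 CPM in the vehicle recovery library and 0.138, 0.938 and 0.272 CPM in the vehicle treatment libraries (3.03, 1.02 to 5.04, adjusted p = 0.368). The other plasma and B cell genes tested, Ighm, Igkc, Jchain and Ms4a1, all had intervals that reached past 2-fold. Of the 7 tested genes of the lymphocyte list, Igkc alone had an unadjusted p below 0.05, where 9.17% of all genes had. Cd79a and Cd79b were too low to be tested, and the part of plasma cells in the Igha value was not tested. Ct55, a cancer/testis antigen gene, read 2.44, 2.13 and 3.89 CPM against 1.05 CPM and 0.897, 0.5 and 0.68 CPM, in the same order (1.84, 1.07 to 2.61, adjusted p = 0.158). Gapdh-ps16, a Gapdh pseudogene, was at 0 in every recovery library, at 6.09 CPM in the vehicle recovery library and at 5.24, 3.13 and 2.22 CPM in the vehicle treatment libraries. Set against a floor of 3 reads per library it was at least 24.7-fold lower (adjusted p = 0.0766), but its reads are shared with near-identical copies and its value is uncertain.

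Among 875 genes that had an unadjusted p below 0.05, no overlap between the 3 recovery and 4 vehicle libraries and at least 2 CPM in the higher group, 485 were higher and 390 lower at recovery. Apart from those above, the largest differences upward were in Gm4064, Sorcs1, Gm19277, Nwd2, Pigz, Rnu1a1, Mtmr7 and H3c15, all with adjusted p above 0.05. Of these, Sorcs1 and H3c15 passed without the vehicle recovery library (adjusted p = 0.0123 and 0.039). Against vehicle treatment H3c15 passed as well (adjusted p = 0.0443). That call held in 0 of 6 fits that each left out 1 recovery or vehicle treatment library (adjusted p up to 0.176). Pigz, a mannosyltransferase of glycosylphosphatidylinositol anchors, read 3.66, 3.84 and 3.09 CPM at recovery, 1.89 CPM in the vehicle recovery library and 1.79, 1.94 and 1.18 CPM in the vehicle treatment libraries (1.06, 0.44 to 1.68). Mtmr7, a phosphoinositide phosphatase, read 3.89, 3.42 and 3.95 CPM, then 3.41 CPM, then 1.1, 1.75 and 1.09 CPM, so that its vehicle recovery library stood with the recovery libraries. Histone genes such as H3c15 and small nuclear RNA genes such as Rnu1a1 have close copies and are uncertain one by one.

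The largest differences downward among the same genes were in Cidea, Slc36a2, Hspa1a, Prkar2b, Upk3b, Gm42858, Bhlhe41, Gm28023 and Robo1. Cidea, a lipid droplet protein of brown and white fat, read 1.63, 2.93 and 2.12 CPM at recovery, 3.41 CPM in the vehicle recovery library and 9.31, 5.63 and 13.9 CPM in the vehicle treatment libraries. The amino acid transporter Slc36a2, also abundant in fat, read 0.639, 1.07 and 1.03 CPM against 1.1 CPM and 4.14, 2.38 and 5.58 CPM. Cidea is also a member of the adipocyte list. The uroplakin gene Upk3b, which also marks mesothelium, read 0.639, 0.534 and 0.972 CPM at recovery and 2.10, 2.41, 1.63 and 1.95 CPM in the vehicle recovery and the 3 vehicle treatment libraries, so all 4 vehicle libraries stood together (-1.49, -2.44 to -0.55). Robo1, a receptor for SLIT guidance proteins, was lower by a similar amount (-1.23, -1.98 to -0.48).

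At the end of dosing 709 genes (4.14%) had changed against the same 4 vehicle libraries, 469 lower (2.74%) and 240 higher (1.4%). At recovery 649 of these (91.5%) were bounded within 2-fold of baseline, against 76.8% of all genes tested, and 505 (71.2%) within 1.5-fold. They were abundant genes: at 2 CPM or more 637 of 666 (95.6%) were bounded, against 94.6% of all genes at that level. The interval excluded 0 in 146 of the 709 (20.6%), against 9.17% of all genes. That comparison is not matched for abundance: the interval excluded 0 in 1369 of 13154 genes at 2 CPM or more. It did so in 162 of 3461 genes between 0.5 and 2 CPM and in 279 of 1460 at 100 CPM or more. Of the 146 genes, 67 lay on the side of their change at the end of dosing and 79 on the opposite side. On the same side were 46 of 55 among genes that had risen and 21 of 91 among genes that had fallen. The bounded count was 422 of the 469 that had fallen (90%) and 227 of the 240 that had risen (94.6%). Of the 60 genes that were not bounded, 31 had a mean under 2 CPM. Only Slc16a6 was called at both times. Both comparisons used the same 4 vehicle libraries, so a vehicle level that is high or low by chance enters each of them.

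The xenobiotic enzymes that fell furthest under JQ1 lay within the range of their vehicle libraries after withdrawal. Ugt2b37 (ENSMUSG00000057425), a glucuronosyltransferase that conjugates lipophilic compounds, read 5.22, 3.74 and 6.47 CPM at the end of dosing and 252, 285 and 257 CPM at recovery. Its vehicle levels were 296 CPM in the vehicle recovery library and 231, 162 and 257 CPM in the vehicle treatment libraries. The difference was 0.16 (-0.31 to 0.63). Cyp2a5, a cytochrome P450 that oxidises coumarin and nicotine, read 123, 141 and 169 CPM at recovery, 179 CPM in the vehicle recovery library and 87.4, 74.4 and 127 CPM in the vehicle treatment libraries, after 4.24, 3.89 and 3.71 CPM at the end of dosing. Its difference was 0.30 (-0.39 to 0.99), just inside the 2-fold bound. Both belong to families with near-identical members, among which reads may be divided wrongly.

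Of the 10 genes that had fallen most, 8 were bounded at recovery. The exceptions were Serpina1f, of the alpha-1-antitrypsin family, and the unnamed gene Gm9973. Serpina1f read 10.0, 12.8 and 9.72 CPM at recovery against 14.6 CPM in the vehicle recovery library and 20.7, 13.1 and 21.5 CPM in the vehicle treatment libraries, after 0.904, 2.80 and 1.53 CPM at the end of dosing. All 3 recovery libraries were below all 4 vehicle libraries, and the difference of -0.69 (-1.26 to -0.12) did not pass the test (adjusted p = 0.455). Gm9973 differed by -0.61 (-1.17 to -0.04). Of the 10 genes that had risen most, 4 were bounded, namely the histone genes H4c8 and H2ac19, the sodium-coupled sugar transporter Slc5a10 and Gm20634. H4c8 read 7.14, 8.16 and 5.89 CPM at recovery and 4.46, 11.0, 5.69 and 7.85 CPM in the vehicle recovery and vehicle treatment libraries, after 56.2, 71.1 and 64.5 CPM at the end of dosing. Slc5a10 had the narrowest interval of the 20 genes, at -0.05 (-0.26 to 0.17).

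The other 6 genes that had risen most were not bounded. For Atoh7, Tmem100 and Gpat3, at 0.343 to 2.32 CPM in the recovery libraries, the interval held 0 and ran past 2-fold. The vitamin D 24-hydroxylase Cyp24a1, which inactivates calcitriol, read 26.7, 12.7 and 22.4 CPM at recovery and 14.8, 12.7, 20.1 and 23.5 CPM in the vehicle recovery and vehicle treatment libraries, and its interval passed the bound only narrowly (0.20, -0.61 to 1.01). Gm25360 alone excluded 0, with 2.44, 2.61 and 3.03 CPM at recovery against 1.79 CPM and 1.52, 1.00 and 1.22 CPM (0.96, 0.40 to 1.52, adjusted p = 0.264), and had read 3.41, 2.77 and 3.53 CPM at the end of dosing.

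**Figure D2:**
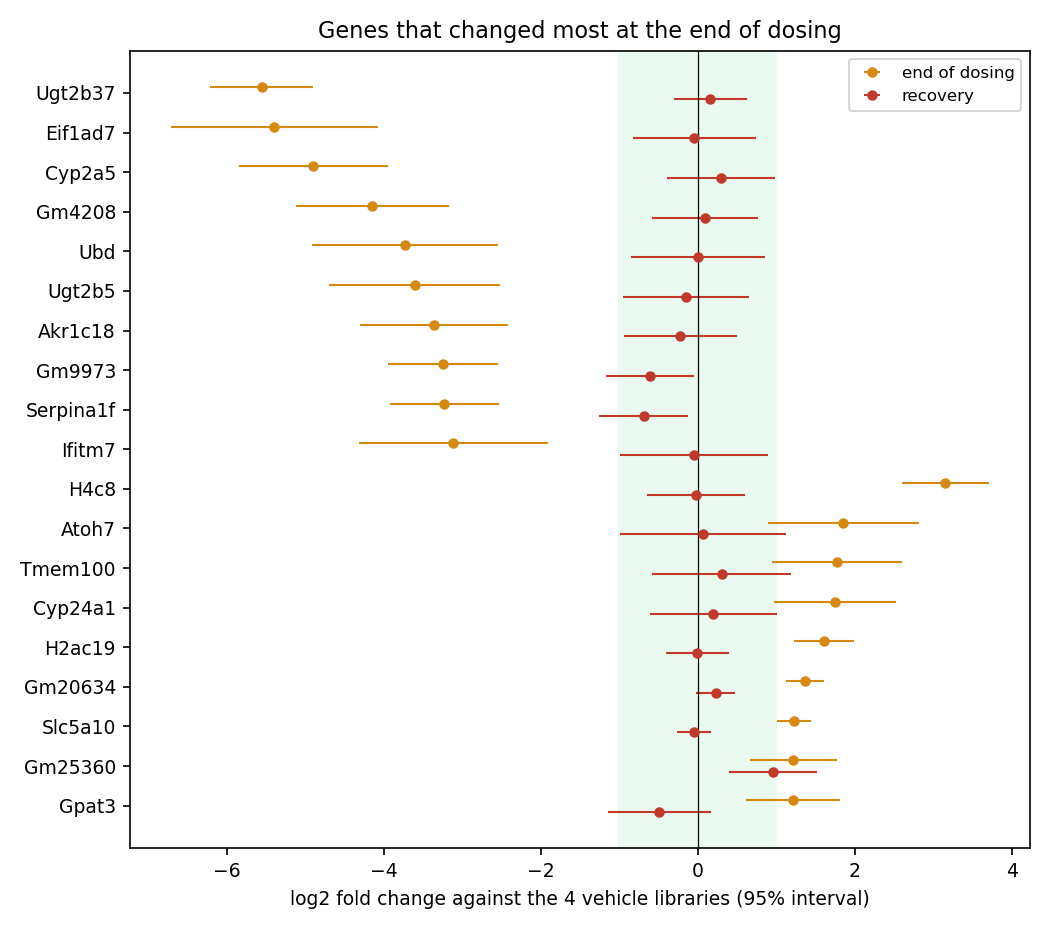
Log2 fold change against the 4 vehicle libraries, with its 95% interval, for the 10 genes that fell most and 9 of the 10 that rose most at the end of JQ1 dosing. Orange points are the end of dosing, red points recovery, n = 3 libraries each, and the shaded band is the 2-fold bound. Ugt2b37 moved from the far left to 0.16, and Gm25360 stayed at 0.96.

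MHC class II genes, which present antigen to helper T cells and are induced by CIITA, had fallen at the end of dosing and lay near their vehicle level at recovery. At the end of dosing 7 of the 8 tested had fallen, where 2.74% of all genes had, with a list median of -2.23. At recovery the median was 0.03 and 7 of 8 were bounded within 2-fold. H2-Aa, the class II alpha chain, read 98.0, 67.0 and 81.3 CPM at recovery, 91.2 CPM in the vehicle recovery library and 84.8, 114 and 39.5 CPM in the vehicle treatment libraries (0.00, -0.77 to 0.77). The invariant chain Cd74 gave 29.2, 28.3 and 23 CPM against 27.3 CPM and 26.3, 35.6 and 14.5 CPM (0.06, -0.50 to 0.61). The regulator Ciita differed by -0.05 (-0.59 to 0.49). Vehicle treatment libraries 2 and 3 were the highest and lowest of the 7 for this list.

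BET family genes and their partners in elongation lay near baseline. Of 20 BET and elongation factor genes tested, 19 were bounded within 2-fold, with a median of -0.02. Brd2 differed by -0.14 (-0.29 to 0.01) and Brd3 by -0.11 (-0.27 to 0.05). The exception was the testis gene Brdt, which read 1.34, 1.55 and 1.32 CPM at recovery, 2.15 CPM in the vehicle recovery library and 1.31, 2.13 and 1.45 CPM in the vehicle treatment libraries, too low for a narrow interval (-0.33, -1.04 to 0.38).

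Set apart from the vehicle recovery library, the comparison looked different. Against the 3 vehicle treatment libraries alone, 234 genes (1.36%) were called at recovery, 182 higher (1.06%) and 52 lower (0.303%). Leaving out 1 of the libraries moved that count between 65 (without vehicle treatment replicate 2) and 241 (without the vehicle recovery library). It was 84 without vehicle treatment replicate 3 and 87, 112 and 90 without recovery replicates 1, 2 and 3. Against the vehicle recovery library alone, with that lone library assumed to vary like the other groups, 1 gene (0.00583%) was called and 603 had an unadjusted p below 0.05. The vehicle recovery library itself differed from the 3 vehicle treatment libraries in 23 genes (0.134%), 18 higher and 5 lower. That count was 3, 8 and 60 without vehicle treatment replicate 2, 3 or 1. These 3 comparisons share libraries, so their values are given side by side and are not independent of each other.

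For the 234 genes called against vehicle treatment, the vehicle recovery library, which was no part of that contrast, stood nearer to the recovery mean than to the vehicle treatment mean in 206 (88%). Over all 3696 genes whose recovery and vehicle treatment libraries did not overlap it was 2426 (65.6%). Of the 234, it lay beyond the recovery libraries in 39 genes, inside their range in 80, between both groups in 108, inside the vehicle treatment range in 5 and on the opposite side in 2. For the 182 higher genes its median was 0.41 above the vehicle treatment mean on the log2 scale, against 0.50, 0.48 and 0.49 in the recovery libraries. For the 52 lower genes it was -0.40, against -0.64, -0.58 and -0.60.

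**Figure D3:**
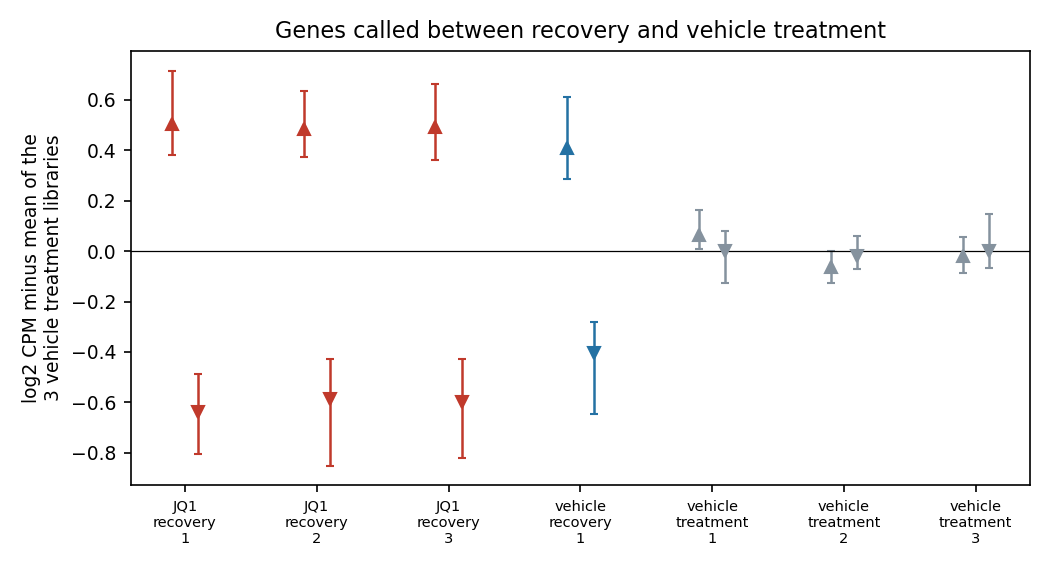
Median and quartiles of log2 CPM minus the mean of the 3 vehicle treatment libraries, for the 182 genes called higher (upward triangles) and the 52 called lower (downward triangles) at recovery than at vehicle treatment, in each of the 7 libraries. The recovery and vehicle treatment libraries were used to choose the genes, and the vehicle recovery library was not. Its medians of 0.41 and -0.40 sit close to those of the recovery libraries.

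In 7 of the 10 largest of these differences (the 5 largest rises and 5 largest falls of at least 2 CPM without overlap) the vehicle recovery library lay inside or beyond the range of the recovery libraries. The exceptions were Ct55 and Gapdh-ps16, given above, and Sorcs1, a receptor of the sortilin family. Gapdh-ps16 was lower at recovery (adjusted p = 0.00924), with the vehicle recovery library above every vehicle treatment library. Ct55 rose by 2.02 (adjusted p = 0.0197), with the vehicle recovery library between both groups and nearer to vehicle treatment. Sorcs1 rose by 2.02 (adjusted p = 0.013), with 2.63 CPM in that library just under the recovery range of 2.77 to 4.88 CPM. The calls of Gapdh-ps16, Ct55 and Sorcs1 held in 5, 2 and 3 of 6 fits that each left out 1 recovery or vehicle treatment library (adjusted p up to 0.0552, 0.135 and 0.0807). Alox15, a lipoxygenase of eosinophils, macrophages and some epithelia, read 34.0, 24.8 and 19.1 CPM at recovery, 34.8 CPM in the vehicle recovery library and 7.18, 5.31 and 5.71 CPM in the vehicle treatment libraries. It rose by 2.10 against vehicle treatment (adjusted p = 0.00159), while against the pool its interval ran from -0.67 to 2.58. Selenbp2, a selenium-binding protein and not among those 10, read 29.4, 25.2 and 26.6 CPM, then 32.1 CPM, then 9.66, 9.81 and 10.9 CPM. Its rise was 1.41 against vehicle treatment (adjusted p = 2.76e-05) and its pooled difference 0.78 (-0.24 to 1.80). The neural transcription factor gene Neurog2 read 3.78, 3.04 and 1.09 CPM at recovery and 6.25 CPM in the vehicle recovery library, against 0, 0 and 0.0454 CPM in the vehicle treatment libraries. Cntnap5a, a contactin-associated protein, rose by 2.45 against vehicle treatment (adjusted p = 0.012), with 3.36 CPM in the vehicle recovery library and 0.272 to 0.875 CPM in the vehicle treatment libraries. The calls of Alox15, Selenbp2 and Neurog2 (adjusted p = 0.00405) held whichever recovery or vehicle treatment library was left out, and that of Cntnap5a was lost without recovery replicate 1 (adjusted p = 0.103) or vehicle treatment replicate 3 (0.0679).

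Among the genes lower at recovery than at vehicle treatment were enzymes of the tubule. Dpys, a dihydropyrimidinase of pyrimidine breakdown, read 7.38, 13.6 and 15.0 CPM at recovery, 13.3 CPM in the vehicle recovery library and 27.0, 24.4 and 30.1 CPM in the vehicle treatment libraries. It fell by 1.18 (adjusted p = 0.0411). Kynu, which cleaves kynurenine, read 2.09, 2.72 and 2.74 CPM, then 1.84 CPM, then 4.35, 6.50 and 7.80 CPM, and fell by 1.31 (adjusted p = 0.0138). Ntrk3, a neurotrophin receptor, fell by 1.74 (adjusted p = 0.0264). Its interval against the pool, -2.34 to -0.65, lay wholly beyond 1.5-fold, with 1.31 CPM in the vehicle recovery library inside the recovery range of 0.686 to 1.55 CPM. These 3 calls were less secure: of 6 fits that each left out 1 recovery or vehicle treatment library, Dpys passed in 2, Kynu in 1 and Ntrk3 in 1, with adjusted p values up to 0.132, 0.106 and 0.141.

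The gene called between recovery and the vehicle recovery library was Gm906. It read 7.09, 5.02 and 6.23 CPM at recovery and 5.31, 6.75 and 3.76 CPM at vehicle treatment and was at 0 in the vehicle recovery library, which put recovery at least 38.8-fold higher than a floor of 3 reads. The 3 recovery and 3 vehicle treatment libraries overlapped, and only the vehicle recovery library stood apart. Of the genes that set the vehicle recovery library apart from the vehicle treatment libraries, S100a8 and S100a9, the calprotectin subunits of neutrophils, read 4.41 and 6.78 CPM there, against 1.51 to 1.97 and 1.92 to 1.97 CPM at recovery and 0.552 to 0.750 and 1.31 to 1.79 CPM at vehicle treatment. The transcriptional corepressor gene Tbl1xr1 read 22.4 CPM there, 29.6 to 34.3 CPM at recovery and 37.4 to 38.4 CPM at vehicle treatment. Cpeb3, a regulator of mRNA translation, and the transporter Abca13 were likewise lowest in that library, at 24.9 and 10.6 CPM. These calls were not secure: when 1 recovery or vehicle treatment library was left out, that of S100a8 was lost in 2 fits, those of Tbl1xr1 and Cpeb3 in 3 and those of S100a9 and Abca13 in 5, with adjusted p values up to 0.0669, 0.11, 0.119, 0.165 and 0.174.

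**Figure D4:**
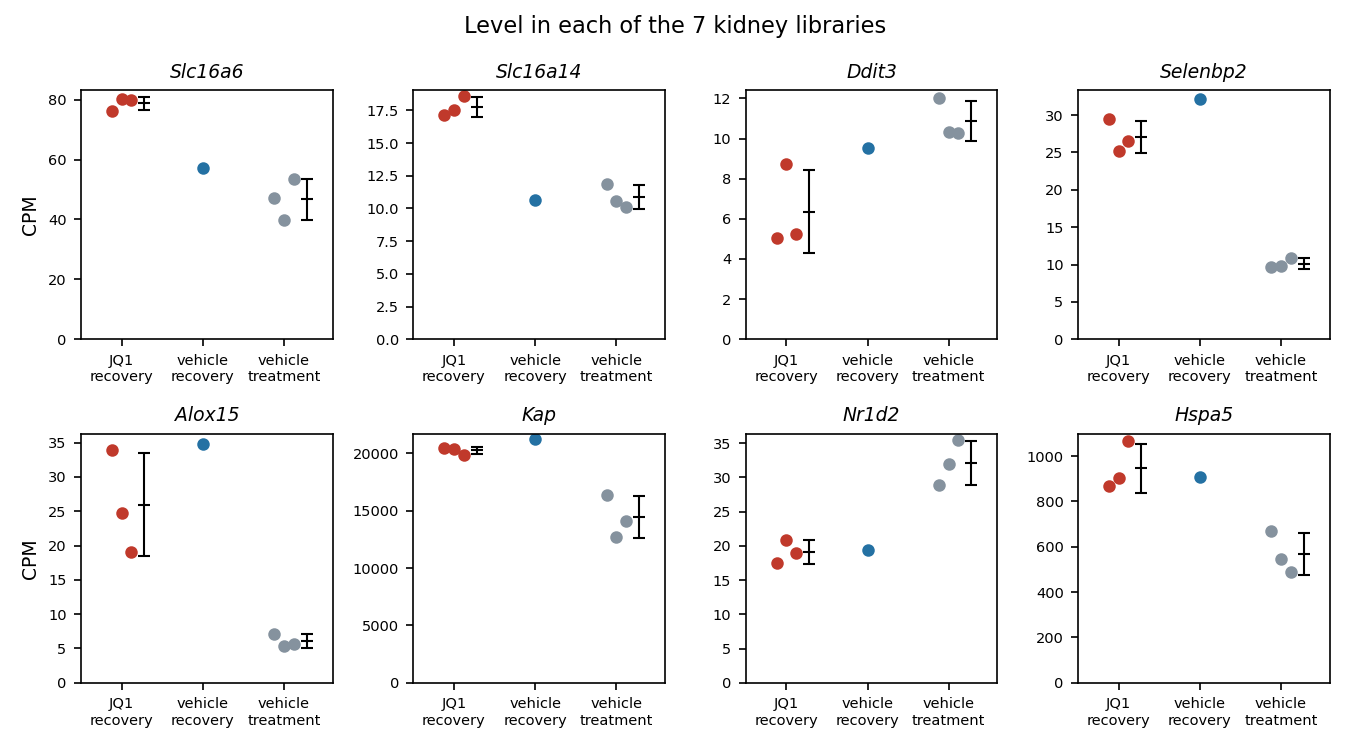
CPM of 8 genes in each library by group, with the vehicle recovery library apart from the 3 vehicle treatment libraries. Points are libraries, and bars are the mean and SD of groups of 3. Slc16a6 and Slc16a14 were highest at recovery with the vehicle recovery library (57.0 and 10.6 CPM) below, whereas for Selenbp2, Alox15, Kap, Nr1d2 and Hspa5 the vehicle recovery library was at the recovery level.

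Male-biased kidney genes lay above the pooled vehicle level as a group. All 12 tested were above 0, with a median of 0.34 against -0.01 over all genes, 8 were bounded within 2-fold and none passed the test against the pool, although 4 had an unadjusted p below 0.05, against 9.17% of all genes. The median was 0.54 against the vehicle treatment libraries and 0.02 against the vehicle recovery library. Kap, the androgen-regulated protein of the proximal tubule, read 20453, 20408 and 19885 CPM at recovery, 21247 CPM in the vehicle recovery library and 16388, 12736 and 14134 CPM in the vehicle treatment libraries. It rose by 0.49 against vehicle treatment (adjusted p = 0.0066), as did the cytochromes Cyp2e1 by 0.58 (adjusted p = 0.00777) and Cyp2j13 by 0.79 (adjusted p = 0.00508). The calls of Kap and Cyp2j13 held in all 6 fits without 1 recovery or vehicle treatment library, and that of Cyp2e1 in 5 (adjusted p = 0.0543 without vehicle treatment replicate 2). Ornithine decarboxylase (Odc1), the first enzyme of polyamine synthesis, read 1327, 1280.5 and 1307 CPM, then 1114 CPM, then 837, 474 and 581 CPM. Against vehicle treatment its difference of 1.05 had an adjusted p of 0.0606. The 8 female-biased genes had a median of -0.44 against the pool, with 6 below and 2 above 0, and 2 were bounded. Their median was -0.55 against vehicle treatment and -0.02 against the vehicle recovery library. Their summed level was 176 to 222 CPM at recovery, 204 CPM in the vehicle recovery library and 177 to 281 CPM at vehicle treatment. The member Cyp4a14, a fatty acid omega-hydroxylase, read 0.800 to 1.80 CPM at recovery and 1.42 CPM in the vehicle recovery library. At vehicle treatment Cyp4a14 read 8.69 to 28.2 CPM.

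Clock genes differed in a pattern of opposite arms. Of 18 tested, 9 were bounded within 2-fold, 10 had an unadjusted p below 0.05 against the pool, where 9.17% of all genes had, and none passed. Against vehicle treatment 7 were called, 3 higher and 4 lower, where 1.36% of all genes were. Arntl, which encodes the activator BMAL1, read 15.0, 14.1 and 15.1 CPM at recovery, 15.4 CPM in the vehicle recovery library and 8.83, 8.19 and 9.71 CPM in the vehicle treatment libraries (0.72, adjusted p = 0.00942). The repressor Cry1 rose with it, by 1.32 (adjusted p = 0.0487). The repressor of Arntl encoded by Nr1d2 read 17.4, 20.9 and 18.9 CPM, then 19.4 CPM, then 28.9, 32.0 and 35.4 CPM (-0.75, adjusted p = 0.0037). Its paralog Nr1d1, the output factor Dbp and the period gene Per3 fell as well, with values of -1.04, -1.14 and -0.80 (adjusted p = 0.012, 0.0213 and 0.0492). For Per3 the vehicle recovery library, at 8.88 CPM, was among the vehicle treatment libraries, while for Arntl, Nr1d2 and Dbp it was with or next to the recovery libraries. Nr1d2 passed in all 6 fits that left out 1 recovery or vehicle treatment library, Arntl in 5, Nr1d1 and Dbp in 2, and Cry1 and Per3 in 1, with the highest adjusted p of each from 0.0259 (Nr1d2) to 0.236 (Per3). The hour of tissue collection is not given in the sources used here, and its part in these values was not tested. An E-box of the letters CACGTG was found, on reading both strands, in the promoter windows of 4 of the 15 clock genes with an entry (Bhlhe41, Cry1, Per1 and Tef) and in those of 8.09% of all 27025 genes.

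Of 20 genes tested that respond to unfolded proteins or to integrated stress signalling, 4 rose and 1 fell against vehicle treatment, where 1.36% of all genes were called. The 4 were Hspa5, Calr, Pdia6 and Hyou1, chaperones of the endoplasmic reticulum, which fold secreted and membrane proteins and are induced through ATF6 and XBP1. The related genes Pdia4, Sdf2l1 and Dnajb9 did not pass, with values of 0.17, 0.55 and 0.23. The promoters of those with a matched element are shown first, since the element is the textbook site of ATF6 and NF-Y: CCAAT and CCACG separated by 9 bases, known as the ERSE, searched on both strands. It was found in 3 of the 19 genes of the stress list with a promoter entry, and in 0.137% of all 27025 genes with promoter windows of 300 bases (250 before and 50 after the start). The windows are RefSeq sequences of build GRCm38.p6, printed from 5′ to 3′ on the strand of the gene with the matched stretch in capitals. Hspa5 lies at chr2:34771840-34772139 on the plus strand, Calr at chr8:84846882-84847181 on the minus strand and Pdia6 at chr12:17266339-17266638 on the plus strand. In Calr the element is on the opposite strand and reads CGTGG, 9 bases and ATTGG.
Hspa5: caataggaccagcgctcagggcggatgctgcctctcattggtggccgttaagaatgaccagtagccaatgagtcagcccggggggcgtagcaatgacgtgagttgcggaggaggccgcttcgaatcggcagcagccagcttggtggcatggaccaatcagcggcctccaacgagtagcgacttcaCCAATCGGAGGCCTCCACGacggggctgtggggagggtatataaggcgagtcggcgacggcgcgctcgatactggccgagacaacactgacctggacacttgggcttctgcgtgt
Calr: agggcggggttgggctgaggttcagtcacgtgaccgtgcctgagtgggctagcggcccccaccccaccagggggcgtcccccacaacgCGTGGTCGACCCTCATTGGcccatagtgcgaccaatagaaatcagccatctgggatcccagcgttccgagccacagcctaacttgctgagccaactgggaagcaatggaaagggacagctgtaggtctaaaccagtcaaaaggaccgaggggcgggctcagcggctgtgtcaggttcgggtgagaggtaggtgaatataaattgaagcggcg
Pdia6: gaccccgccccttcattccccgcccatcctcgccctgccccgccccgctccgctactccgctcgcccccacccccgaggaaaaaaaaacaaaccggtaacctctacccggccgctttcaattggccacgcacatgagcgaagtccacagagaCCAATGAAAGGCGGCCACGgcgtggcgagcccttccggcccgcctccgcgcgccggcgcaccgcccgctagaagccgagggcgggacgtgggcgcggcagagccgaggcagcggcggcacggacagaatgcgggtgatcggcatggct
A match describes these letters in this window and shows no binding.

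Those 3 genes all rose against vehicle treatment. Hspa5, the chaperone BiP, read 867, 903 and 1068 CPM at recovery, 909.6 CPM in the vehicle recovery library and 671, 547 and 489.8 CPM in the vehicle treatment libraries. Its rise was 0.73 (adjusted p = 0.00526), and its pooled difference was 0.53 (0.08 to 0.98), inside the bound. The lectin chaperone calreticulin (Calr) read 579.6, 567 and 672 CPM, then 526 CPM, then 477, 458 and 440.1 CPM (0.40, adjusted p = 0.0181). The disulfide isomerase Pdia6 rose by 0.35 (adjusted p = 0.0487) and the co-chaperone Hyou1, whose promoter was not looked at, by 0.52 (adjusted p = 0.0221). Ddit3, the pro-apoptotic factor CHOP of the same response, went the other way, with 5.05, 8.75 and 5.26 CPM at recovery, 9.51 CPM in the vehicle recovery library and 12, 10.3 and 10.3 CPM in the vehicle treatment libraries (-0.77, adjusted p = 0.049). Of the 20 genes, 15 were bounded against the pool, and the median was 0.18. Of 6 fits without 1 recovery or vehicle treatment library, the call held in 6 for Hspa5, 3 for Calr, 2 for Hyou1, 1 for Pdia6 and 1 for Ddit3, with adjusted p values up to 0.0442, 0.113, 0.122, 0.227 and 0.231.

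Of 14 heat shock genes, 4 chaperone genes rose against vehicle treatment, where 1.06% of all genes did, and 0 fell. Hsp90aa1 read 1301, 1240.1 and 1467 CPM at recovery, 1185 CPM in the vehicle recovery library and 987, 806 and 774 CPM in the vehicle treatment libraries (0.64 against vehicle treatment, adjusted p = 0.00379). Hsp90ab1, Hspe1 and Dnaja1 rose by 0.49, 0.41 and 0.50. The calls of Hsp90aa1 and Hsp90ab1 held in all 6 fits without 1 recovery or vehicle treatment library, and those of Hspe1 and Dnaja1 in 3 and 2 (adjusted p up to 0.0941 and 0.0963). The inducible chaperone Hspa1a read 3.60, 3.25 and 3.83 CPM at recovery, 8.72 CPM in the vehicle recovery library and 24.6, 8.19 and 3.86 CPM in the vehicle treatment libraries, of which replicate 1 stood above the rest. Against the pool 10 of the list were bounded.

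Genes of glucose metabolism and of the proximal tubule were mostly bounded. Of 22 genes of gluconeogenesis and glycolysis, 21 were. Of the 22, 12 lay above and 10 below 0, with a median of 0.07. Glucose-6-phosphatase (G6pc), the last step of glucose release, read 492, 339 and 418 CPM at recovery, 331 CPM in the vehicle recovery library and 253, 297 and 284 CPM in the vehicle treatment libraries. It rose by 0.58 against vehicle treatment (adjusted p = 0.0385), with Fbp1 and the glucose-6-phosphate carrier Slc37a4 rising by 0.31 and 0.34. Of 25 proximal tubule genes, 24 were bounded with a median of 0.14, and 4 rose and 1 fell against vehicle treatment, where 1.36% of all genes were called. The organic anion transporter Slc22a6 rose by 0.31 (adjusted p = 0.0479) and the neutral amino acid transporter Slc6a19 fell by 0.45 (adjusted p = 0.0297). The cell cycle inhibitor Cdkn1a read 28.1, 27.7 and 28.2 CPM at recovery, 27.8 CPM in the vehicle recovery library and 21.8, 15.8 and 17.3 CPM in the vehicle treatment libraries, a rise of 0.62 (adjusted p = 0.0138). Of 6 fits without 1 recovery or vehicle treatment library these calls held in 1 for G6pc, 0 for Fbp1, Slc37a4 and Slc22a6, 2 for Slc6a19 and 2 for Cdkn1a, with adjusted p values up to 0.205 (Slc22a6). Cdkn1a belongs to the list of tubular injury and repair genes, of which 18 were tested, 7 were bounded, 14 lay below 0 and the median was -0.17. The other member that rose against vehicle treatment was Il34, a cytokine of macrophages, with 27.9, 26.3 and 24.3 CPM at recovery, 28.9 CPM in the vehicle recovery library and 17.6, 15.6 and 10.1 CPM in the vehicle treatment libraries (0.87, adjusted p = 0.031, held in 1 of 6 fits, up to 0.132). The injury marker Havcr1, or KIM-1, read 1.60 to 2.38 CPM at recovery, 1.05 CPM in the vehicle recovery library and 0.828 to 4.75 CPM at vehicle treatment. Neutrophil gelatinase-associated lipocalin (Lcn2) read 0.116 to 0.640 CPM, then 0.578 CPM, then 0.726 to 4.25 CPM, and neither passed.

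Lipid genes were likewise mostly bounded. Of 24 fatty acid oxidation genes, 20 were, with a median of -0.11, and of 18 cholesterol synthesis genes 17 were, with a median of -0.09. Fdps, which makes farnesyl pyrophosphate for sterols, read 12.7, 14.1 and 13.6 CPM at recovery, 11.3 CPM in the vehicle recovery library and 23.4, 20.5 and 19.4 CPM in the vehicle treatment libraries. It fell by 0.64 against vehicle treatment (adjusted p = 0.0175, held in 1 of 6 fits without 1 recovery or vehicle treatment library, up to 0.104), and its vehicle recovery library stood beyond the recovery libraries. The growth factor gene Fgf1 read 114, 104 and 99.1 CPM, then 112 CPM, then 80.2, 64.1 and 66.5 CPM, a rise of 0.59 (adjusted p = 0.00526) that held in all 6.

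Of the complement and coagulation genes, Cfb, Serpinf2 and Proc, a serine protease of the alternative pathway, the plasmin inhibitor and protein C, had been low at the end of dosing. Cfb read 107, 122 and 129.6 CPM then, 285, 300.1 and 266 CPM at recovery, 286 CPM in the vehicle recovery library and 227, 221 and 217 CPM in the vehicle treatment libraries. Recovery and vehicle recovery libraries overlapped above the vehicle treatment libraries. The rise against vehicle treatment was 0.36 (adjusted p = 0.0264) for Cfb, 0.49 (adjusted p = 0.0104) for Serpinf2 and 0.46 (adjusted p = 0.0221) for Proc, which held in 2, 3 and 2 of the 6 fits without 1 recovery or vehicle treatment library (adjusted p up to 0.114, 0.063 and 0.12). Against the pool 14 of the 18 genes of this list were bounded, with a median of -0.06.

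Markers of kidney cell types were mostly close to baseline. All 14 podocyte genes and all 13 genes of the distal convoluted and connecting tubule were bounded within 2-fold, as were the 13 mitochondrially encoded and 24 ribosomal protein genes. Podocyte genes lay slightly below the pool, with a median of -0.20 and 13 of 14 below 0. Against the vehicle recovery library their median was -0.07, and against vehicle treatment -0.28. Collecting duct principal cell genes lay lower, with a median of -0.36 and 13 of 14 below 0, and with -0.32 and -0.35 in the same order. Against the pool, 12 of 13 intercalated cell, 9 of 10 smooth muscle and 8 of 10 loop of Henle genes were also below 0. Above it were 19 of 25 proximal tubule and 9 of 14 endothelial genes. The water channel Aqp3 of principal cells read 57.1, 50.4 and 55.9 CPM at recovery, 67.0 CPM in the vehicle recovery library and 67.8, 74.8 and 66.9 CPM in the vehicle treatment libraries, with all 4 vehicle libraries above recovery (-0.34, -0.54 to -0.15, adjusted p = 0.264). Of 14 endothelial genes 13 were bounded, with a median of 0.07, and the VEGF receptor gene Kdr read 124, 114 and 115 CPM at recovery against 96.7 CPM and 96.5, 103 and 105 CPM (0.23, 0.09 to 0.37, adjusted p = 0.272). Renin (Ren1), of the juxtaglomerular cells, differed by -0.44 (-0.80 to -0.09, adjusted p = 0.433). All 20 fibroblast and matrix genes were below 0, with a median of -0.28, and 10 of them were bounded. Their median was -0.07 against the vehicle recovery library and -0.37 against vehicle treatment.

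Genes of tissues around the kidney differed between groups and also between libraries of 1 group. All 14 adipocyte genes tested were below the pooled vehicle level, with a median of -1.79, 0 were bounded, 0 were called and 4 had an unadjusted p below 0.05, against 9.17% of all genes. The 3 recovery libraries did not overlap the 4 vehicle libraries in 9 of the 14, against 10.5% of all genes. The summed level of the adipocyte genes was 147.2 to 151.2 CPM at recovery and 196.8 CPM in the vehicle recovery library. In the vehicle treatment libraries it was 260.6 to 570.5 CPM. The lipid droplet coat gene Plin1 read 1.68, 2.40 and 3.15 CPM at recovery, 3.62 CPM in the vehicle recovery library and 10.3, 6.56 and 16.8 CPM in the vehicle treatment libraries. Ucp1, which uncouples respiration in brown fat, read 4.36, 4.32 and 4.69 CPM, then 4.04 CPM, then 26.8, 14.7 and 31.2 CPM. The part of attached fat in these values, and in those of Cidea, Slc36a2 and Prkar2b, was not tested. Hepatocyte genes summed to 75.7 CPM in the vehicle recovery library, 30.3 to 50.8 CPM at recovery and 22.3 to 27.4 CPM at vehicle treatment. Albumin (Alb) followed that order, with 27.6 CPM, 7.04 to 15.7 CPM and 3.94 to 5.31 CPM. Of 10 neutrophil genes, 6 were too low to be tested, and S100a8 and S100a9 were the 2 tested members that were not bounded.

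**Figure D5:**
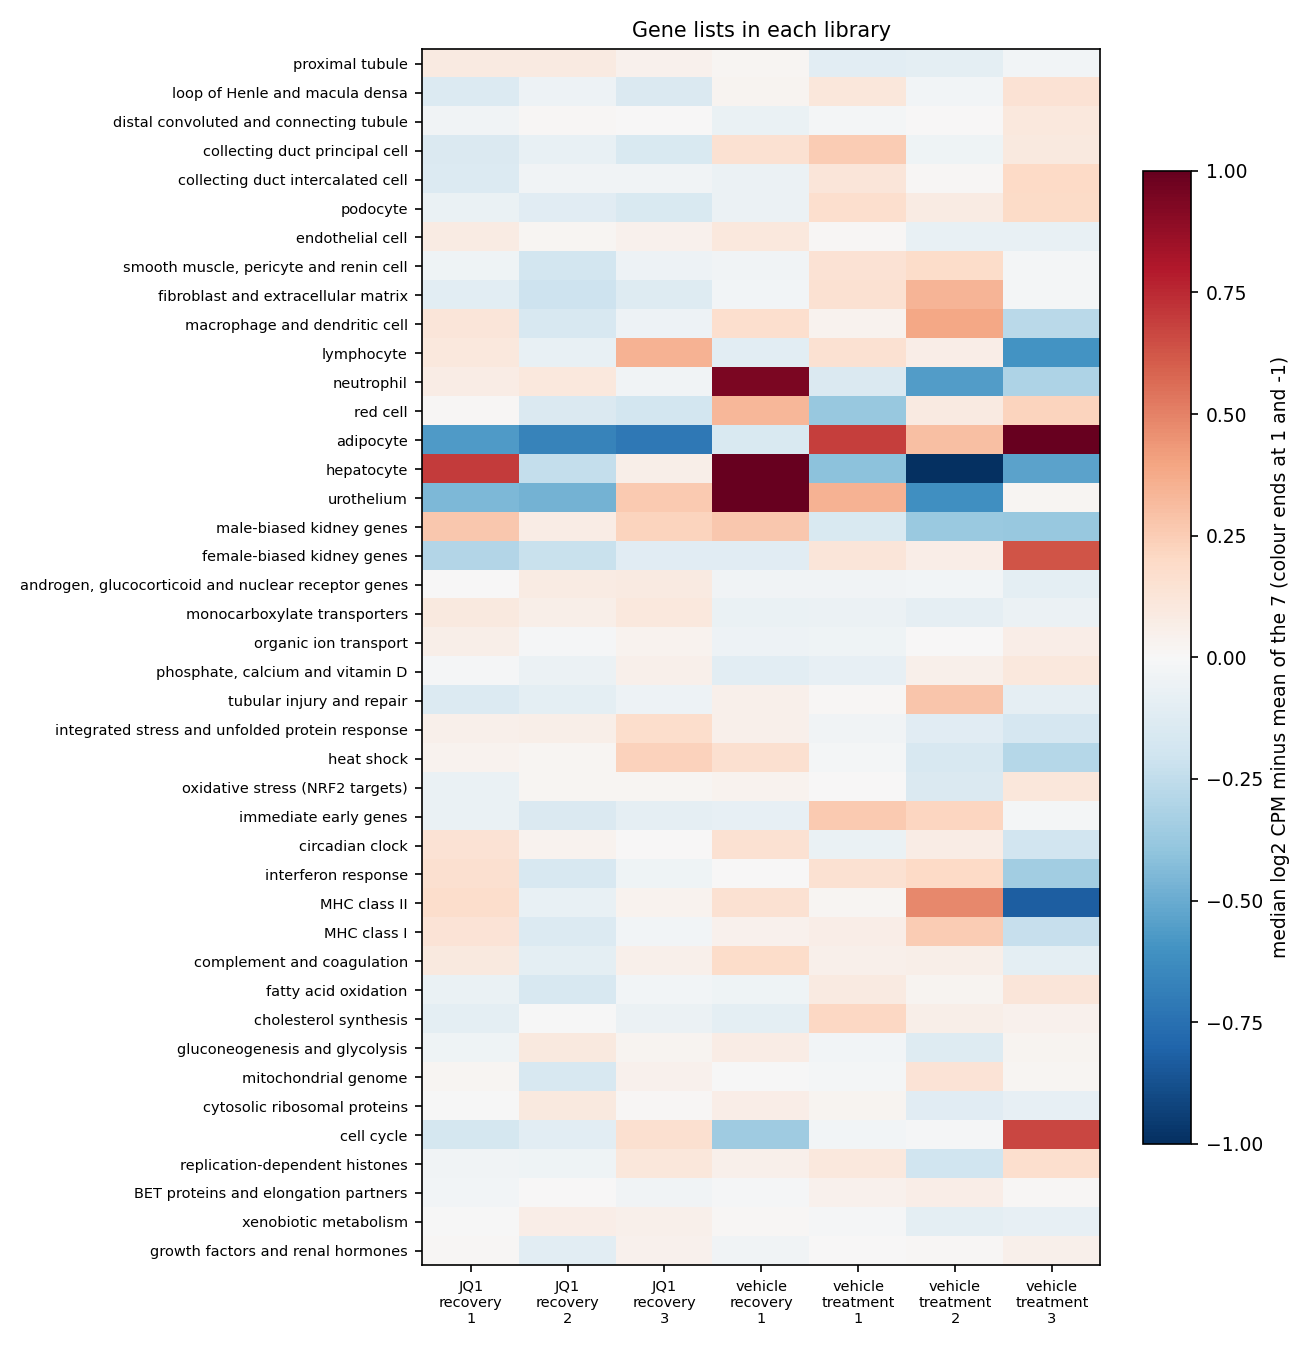
Median over the tested genes of each list of log2 CPM (with 0.5 CPM added) minus the mean of the 7 libraries, in each library, for lists with at least 3 tested genes. Red is above and blue below the mean, and the colour ends at 1 and -1. Adipocyte genes were low in the 3 recovery libraries and high in the vehicle treatment libraries, and neutrophil, hepatocyte and urothelium genes were high in the vehicle recovery library.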

How the data were processed

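RNA from 10 kidney libraries was analysed, and the liver files were not used. Per the study's methods, poly(A)-selected RNA was sequenced, and the authors ran fastp 0.20.1 for trimming and Salmon 1.10.0 for quantification. The deposited files give an estimated count and a TPM value for each of 147833 transcripts. Salmon divides reads that match several transcripts between them, so members of near-identical families and overlapping genes are uncertain one by one. Estimated counts were summed per gene symbol (54778 symbols) and rounded, and TPM values with effective lengths entered one alternative only.

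Genes were tested with edgeR 4.0.16 in R 4.3.3 (filterByExpr with min.count 10 and min.total.count 15, TMM scaling, robust quasi-likelihood F-test, two-sided) over the 10 libraries in 3 groups, or in 4 with the vehicle recovery library apart. That lone library was assumed to vary like the others. P-values were adjusted by Benjamini-Hochberg over the 17146 genes tested and a gene was called below 0.05. The 95% interval was derived from the fold change, its F statistic and the total degrees of freedom of the fit (median 17.99). Bounded means that this interval lay inside 1 on the log2 scale in both directions. CPM used TMM-scaled library sizes.

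Members, gene lists (43) and tests were chosen with earlier results of these data known. Genes named were those called, then the largest differences among genes with an unadjusted p below 0.05, no overlap and at least 2 CPM, the largest called differences against vehicle treatment and of the vehicle recovery library, those changed most at the end of dosing, the most abundant, and list members with the lowest p. Others named (Ighm, Igkc, Jchain, Acsm2, H2-Aa, Cd74, Ciita, Brd3, Brdt, Plin1, Alb, Arntl, Cry1, Dbp, Odc1, Cyp2e1, Cyp4a14, Hspa5, Hspa1a, Slc6a19, Havcr1, Lcn2, Il34, Pdia4, Sdf2l1, Dnajb9, Aqp2, Umod) were chosen from the lists after their values were seen. Some genes that the rule names are not reported here. The alternatives were DESeq2 1.42.0, voom of limma 3.58.1, RLE factors, length-scaled TPM counts, no filter, the 7 libraries alone, a replicate block, sums per gene identifier, a 1.5-fold bound, a 90% interval and leaving out each library. The interval method was tested on simulated data in which the 4 vehicle libraries shared 1 level for each gene. That simulation cannot speak to a pool whose libraries differ in level, as the vehicle recovery library did here.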

Additional observations from a re-analysis of the deposited data

Results flagged for a closer look

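In 39 groups of 4 vehicle libraries examined, 1 library stood far from the other 3 in 6 genes, and in each of these it was the vehicle recovery library. About 1 in 20 groups is expected to be marked by chance. The gap to the nearest of the others, as a share of the whole range, was 0.993 for Neurog2 (6.25 CPM against 0 to 0.0454), 0.937 for Alox15 (34.8 CPM against 5.31 to 7.18), 0.943 for Selenbp2 (32.1 CPM against 9.66 to 10.9), 0.949 for S100a8 (4.41 CPM against 0.552 to 0.750), 0.912 for S100a9 (6.78 CPM against 1.31 to 1.79) and 0.942 for Tbl1xr1 (22.4 CPM against 37.4 to 38.4). All 6 were named because they set that library or the recovery libraries apart from vehicle treatment, so the share marked describes this choice of genes.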

How the results depend on the processing

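The share of genes bounded within 2-fold of the pool was 70.4% to 80.0% under the alternatives that kept that bound, the 95% interval and the filter on low counts, and 50.1% of 28667 genes with no filter, whereas the counts of called genes did not hold. Against the pool, in place of 1 gene, DESeq2 called 108, no filter on low counts 177, the 7 libraries alone 13, and length-scaled TPM counts and voom 0 each. Leaving out 1 library gave 0 to 241 genes: 241 without the vehicle recovery library (192 higher, 49 lower), 0 without recovery replicate 1 or 2 or vehicle treatment replicate 1, and 2 without vehicle treatment replicate 3. Against vehicle treatment, in place of 234, DESeq2 called 463, no filter 671 and length-scaled TPM counts 62, and leaving out 1 library gave 65 to 241, with 65 without vehicle treatment replicate 2, 84 without vehicle treatment replicate 3, and 87, 112 and 90 without recovery replicates 1, 2 and 3. Against the vehicle recovery library, in place of 1, DESeq2 called 4, no filter 23, length-scaled TPM counts 2 and voom 0, and leaving out 1 library gave 1 to 2. Between the vehicle recovery and vehicle treatment libraries, in place of 23, DESeq2 called 93, no filter 198, length-scaled TPM counts 5 and voom 12, and leaving out 1 library gave 3 to 60. Of the genes changed at the end of dosing, in place of 91.5%, the share bounded at recovery was 87.1% with DESeq2, 87.8% with length-scaled TPM counts, 87.3% with no filter, 93.6% with voom, 71.2% with a 1.5-fold bound and 86.2% to 90.6% when 1 library was left out. None of 64 recomputed differences of single genes that had passed the test changed sign under any alternative, whereas 35 of 226 that had not passed did under at least 1. The cause of these differences was not tested.

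With the replicate number as a block, 0 genes were called against the pool, 188 against vehicle treatment and 3 between the vehicle groups, and 89.0% of the genes changed at the end of dosing were bounded. The deviations of recovery and vehicle treatment libraries with the same number correlated at 0.09, -0.05 and -0.00. Those with different numbers correlated at -0.12 to 0.12. With 3 libraries per group these values cannot decide whether the numbers pair the libraries.

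Genes under 2 CPM were rarely bounded, and a single age-matched vehicle library limits every statement on age.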
